A study of Danio rerio with 4 samples.

Results

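Collagens and basement membrane proteins form the extracellular matrix around and within the eye. The genes described here are those whose symbol in the authors' deposited comparison table names a collagen chain, a laminin chain, a nidogen, perlecan (hspg2), agrin, fibronectin, a fibrillin, a fibulin or sparc, with col17a1a and col17a1b left out. They number 91 genes with 183 transcripts, of 26355 genes with 46226 transcripts that had counts. By symbol they fall into 5 classes. There are 10 cartilage collagen genes (collagens II, IX, X and XI) and 11 other fibrillar collagen genes (I, V and XXVII). A further 29 are basement membrane genes (collagens IV, XV and XVIII, laminins, nidogens, perlecan and agrin), 26 are genes of other collagens and 13 are genes of matrix glycoproteins. The symbol pattern also took in 2 genes of the ceramide transfer protein (COL4A3BP). This protein carries lipids and is no collagen, and its genes were kept apart.

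A collagen molecule is a triple helix of 3 chains. Fibrillar collagens pack into fibres, collagen IX decorates collagen II fibrils, and collagen XI starts and limits their growth. A basement membrane is a thin sheet of a laminin network and a collagen IV network, joined by nidogen and perlecan, and each laminin is built of an alpha, a beta and a gamma chain. In the eye such sheets form the inner limiting membrane of the retina, the lens capsule and the membrane under the pigment epithelium, while the collagen II family is known from cartilage, the notochord sheath and the vitreous.

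Retinas were dissected from zebrafish (Danio rerio) embryos at 48 hours post fertilization, and poly-A selected RNA was sequenced in 4 libraries. The id2a knockdown group of 2 biological replicates had received an id2a morpholino, an antisense oligonucleotide against the transcript of the helix-loop-helix protein Id2a. The control group of 2 biological replicates had received the Id2aMM morpholino, whose abbreviation the labels do not spell out, so that both groups carried a morpholino. The labels give no strain, morpholino dose or number of embryos in a library, and do not say whether the id2a morpholino blocks translation or splicing. The most abundant id2a transcript was at 84.8 and 70.6 CPM (counts scaled to library size) in the knockdown libraries, against 82.3 and 59.5 CPM in the control, with a log2 fold change of 0.13, an SE of 0.24 and an adjusted p of 0.768 in edgeR, and so does not check the labels.

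Libraries held 42980929 to 54710062 counts. Log2 CPM correlated at 0.967 between the knockdown libraries and 0.967 between the control libraries, against 0.899 to 0.947 between groups (across transcripts, which are not independent). All 20 retina markers were expressed enough to be tested. Of these 2 rose, among them rx1, and 4 fell, which were isl1, elavl3, neurod and rx3 (30% called, against 8.06% of all tested genes). The retina list summed to 1227 to 1759 CPM in the knockdown against 2346 to 3160 CPM in the control. Both knockdown libraries were below both control libraries in 12 of the 20 markers and above them in 4. Over all tested genes 32.3% were below and 29.8% above. Of 16 lens genes 11 rose (68.8%, against 8.06% of all tested genes called). The lens list summed to 1372 to 2314 CPM in the knockdown against 464 to 582 CPM in the control. Of 19 epidermis genes 13 fell (68.4%, against 8.06% of all tested genes called). The epidermis list summed to 341 to 745 CPM in the knockdown against 2023 to 2123 CPM in the control. Of the 13, col17a1b fell only by a less abundant transcript (log2 fold change -2.93). Its most abundant transcript, which enters the sum, was at 98.9 and 87.6 CPM in the knockdown against 87.4 and 59.4 CPM in the control. In dissected tissue, fewer cells of a type and less RNA per cell cannot be told apart.

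Of the 91 genes, 78 passed the filter on low counts with at least 1 transcript, and 59 of the 78 averaged at least 2 CPM. The other 13 averaged 0.0141 to 0.158 CPM and were not tested. They were lama3, nid2b, col10a1, FBLN7, FBN1 (1 of 2), FBN2, both COL19A1 genes, COL21A1, COL22A1 (1 of 2), COL25A1, COL28A1 (2 of 2) and COL5A2 (2 of 2). Of the 78, 7 (8.97%) had a transcript past an edgeR adjusted p of 0.05. Over all 20875 tested genes the share was 8.06%, so the collagen and basement membrane genes were called about as often as other genes. In the knockdown, 2 of them rose (lamb2l and fbln2), where 2.37% of all tested genes did. Another 5 fell, among them COL9A1 (1 of 2), col11a2, col6a1 and col7a1l, where 5.7% of all tested genes did. Of their 156 tested transcripts 4 rose and 5 fell (5.77%), where 2.06% of all tested transcripts rose and 4.97% fell (7.03% in all). A further 14 genes had a lowest adjusted p between 0.05 and 0.10. Both knockdown libraries were above both control libraries in 18 of the 78 (23.1%) and below them in 29 (37.2%), where 29.8% and 32.3% of all tested genes were. With DESeq2 on the same counts 20 of the 78 were called, 5 higher and 15 lower, where 6.23% of all tested genes were higher and 9.64% lower. Beyond 6 of the 7, DESeq2 called col15a1b, col28a1 and fbln1 higher. It called lower col2a1a, col9a2, col9a3, col11a1a, col5a3b, COL5A2 (1 of 2), col6a2, col6a3 (ENSDARG00000077139), COL7A1, COL8A2 and lamb4. At an unadjusted p under 0.05 in edgeR there were 10 higher and 21 lower genes of the 78, where 12.9% of all tested genes were higher and 17.9% lower (30.7% in all). Taken by the transcript with the smallest p, each of the 7 kept its sign in the 4 fits that left out 1 library. The most abundant col11a2 transcript did not, with log2 fold changes of -0.0435 to 0.0655. No gene of the whole table was called by edgeR without control replicate 1 or without control replicate 2, when the lone control library is assumed to vary like the others. Without control replicate 1, 32 of the 78 genes had an unadjusted p under 0.05, where 25.4% of all tested genes did. Without control replicate 2, 20 of the 78 did, near the 26.2% of all tested genes.

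The authors' deposited table, which used DESeq per the submitters' processing notes, calls 10 transcripts of these genes higher in the knockdown, where 3.2% of all its transcripts are, and 8 lower, where 5.69% are. Of these 18 calls in the authors' deposited table, 6 were also made by edgeR. The authors' deposited table alone calls 4 transcripts of col15a1b, at log2 fold changes of 0.85 to 1.08, and 2 of fbln1, at 1.02 each. It also alone calls col5a3b at -1.76, col9a2 at -0.85 and 2 transcripts of col6a2 at -1.44 and -1.45. The last of the 12 in the authors' deposited table are 1 transcript of fbln2 (1.69) and 1 of the ceramide transfer protein gene col4a3bpa (-2.02). Called by edgeR alone were the transcripts of col7a1l and col11a2 and 1 of fbln2 (ENSDART00000113707). Their adjusted p-values from DESeq in the authors' deposited table are 0.206, 0.117 and 0.0749.

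**Figure D1:**
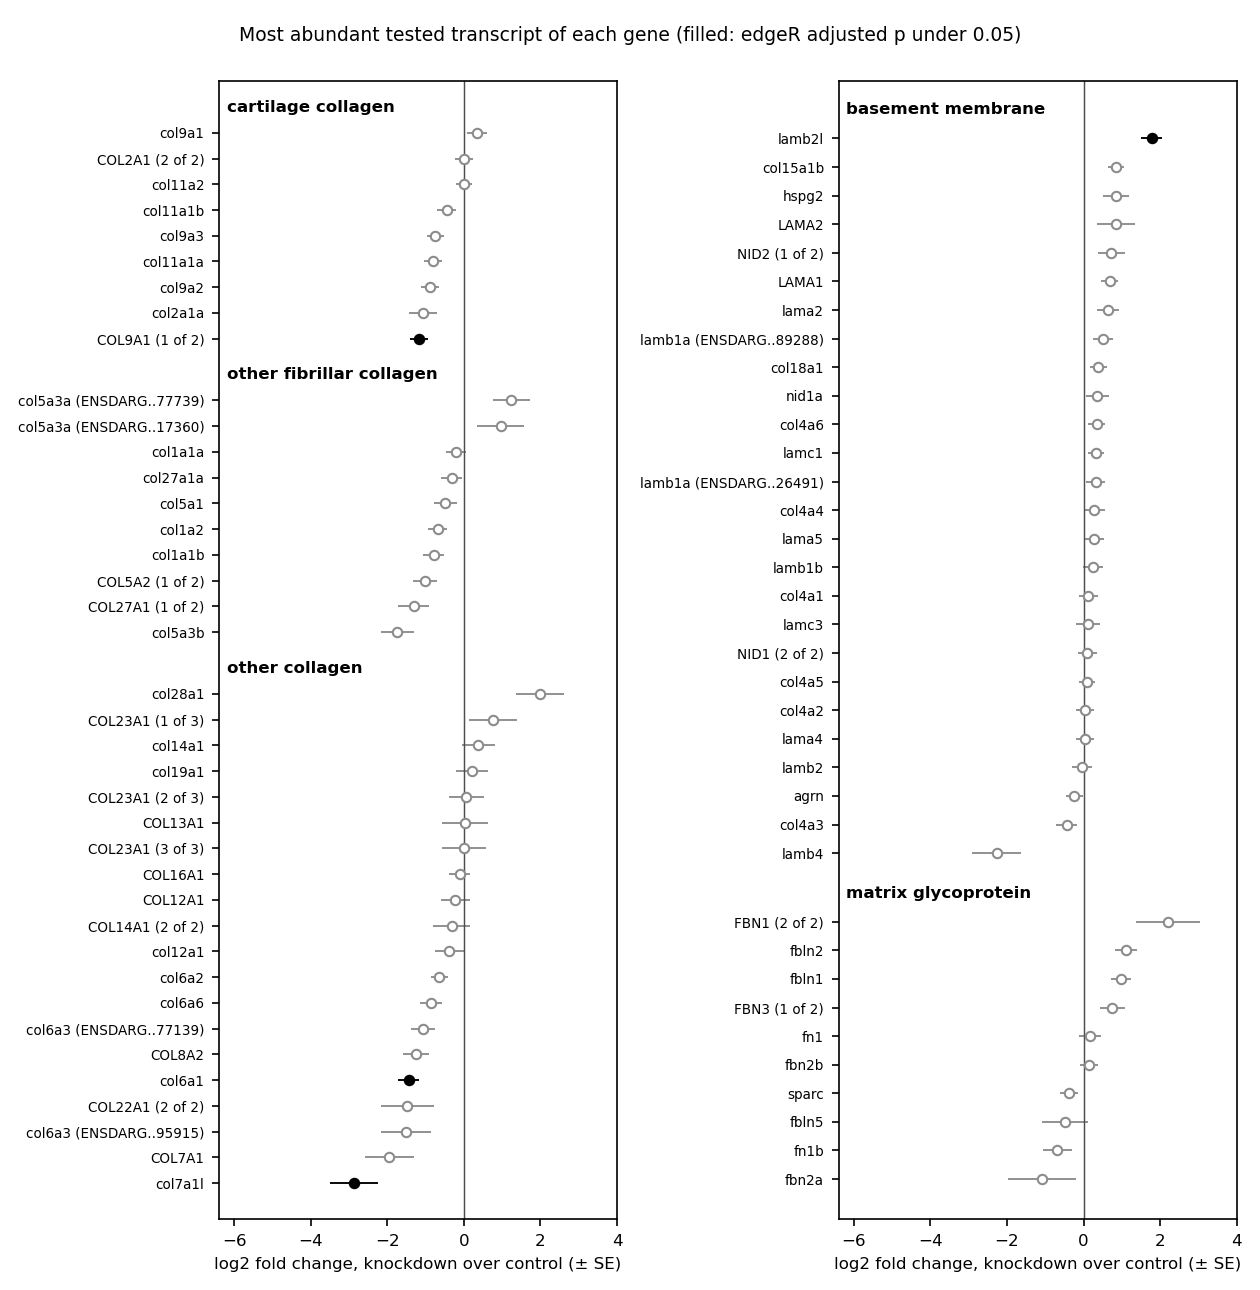
Log2 fold change, knockdown over control, with its SE (x axis, bars) for the most abundant tested transcript of the tested genes named on the y axes, by class, without the 2 ceramide transfer protein genes. Filled points have an edgeR adjusted p under 0.05; most points of the cartilage and other fibrillar collagens lie below 0 and most of the basement membrane points above it. The called transcripts of col11a2 and fbln2 are not their most abundant ones, so both genes appear open here.

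The cartilage collagens lay mostly below the control level. In 6 of the 9 tested genes (66.7%) both knockdown libraries were below both control libraries, where 32.3% of all tested genes had that order, and in 0 genes were both above, where the share of all tested genes was 29.8%. Their median log2 fold change was -0.74, and the median of all tested genes was -0.04. The class median stayed between -0.85 and -0.55 when 1 library at a time was left out. COL9A1 (1 of 2) and 1 transcript of col11a2 passed the edgeR test (22.2% of the class, against 8.06% of all tested genes). By DESeq2 6 of the 9 were lower and 0 higher, where 9.64% of all tested genes were lower: both of these genes, col2a1a, col9a2, col9a3 and col11a1a.

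Collagen IX chains coat the surface of collagen II fibrils. COL9A1 (1 of 2) (ENSDARG00000073699, chromosome 11) had 11.1 and 10.6 CPM in the knockdown and 22.04 and 26.8 CPM in the control. The knockdown libraries were alike and both lay below either control library, and a log2 fold change of -1.17 with SE 0.24 and adjusted p = 0.0333 in edgeR passed the test. The chains col9a2 and col9a3 had the same order without passing it. Levels of col9a2 were 27.7 and 25.5 CPM in the knockdown, against 44.4 and 53.8 CPM in the control (log2 fold change -0.88 with SE 0.22, adjusted p = 0.0535 in edgeR). Those of col9a3 were 24.1 and 26.3 CPM in the knockdown, against 38.4 and 46.0 CPM in the control (log2 fold change -0.74 with SE 0.22, adjusted p = 0.0815 in edgeR). The second collagen IX alpha 1 gene, col9a1, lay the other way, at 48.1 and 35.4 CPM in the knockdown and 38.0 and 27.9 CPM in the control, with overlapping groups (log2 fold change 0.34 with SE 0.26, adjusted p = 0.442 in edgeR).

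Collagen II, the chief collagen of cartilage and the notochord sheath, has 2 genes here. Per transcript length col2a1a was the highest of the cartilage collagens, at 33.5 RPKM (a level per transcript length and library size, from the authors' score) on average over the 4 libraries. It had 101 and 178 CPM in the knockdown, against 208 and 379 CPM in the control. The groups did not overlap, but control replicate 2 stood far above control replicate 1 and the change missed the threshold (log2 fold change -1.07 with SE 0.36, adjusted p = 0.104 in edgeR). Leaving out control replicate 2 gave -0.57. Leaving out knockdown replicate 2 gave -1.53. The second gene, COL2A1 (2 of 2), had 37.4 and 29.1 CPM in the knockdown and 31.0 and 35.2 CPM in the control, which overlap (log2 fold change 0.01 with SE 0.23, adjusted p = 0.992 in edgeR).

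Collagen XI chains assemble with collagen II and set the width of its fibrils. The alpha 1 chain col11a1a had 33.1 and 31.0 CPM in the knockdown and 47.0 and 65.5 CPM in the control (log2 fold change -0.81 with SE 0.24, adjusted p = 0.0789 in edgeR). Its paralog col11a1b had 40.3 and 34.7 CPM in the knockdown and 42.3 and 59.7 CPM in the control (log2 fold change -0.44 with SE 0.25, adjusted p = 0.291 in edgeR). Neither passed the test, although in both genes the groups did not overlap. The alpha 2 chain col11a2 gave different answers by transcript and by counting. Its transcript ENSDART00000133179 fell, at 4.65 and 4.404 CPM in the knockdown against 9.44 and 16.3 CPM in the control (log2 fold change -1.51 with SE 0.32, adjusted p = 0.0364 in edgeR). The other 4 transcripts, among them the most abundant at 38.1 and 35.3 CPM in the knockdown and 37.7 and 35.5 CPM in the control, had log2 fold changes of 0.00 to 0.32.

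These counts take each alignment in full, and col11a2 shares most of its reads with other transcripts. When the authors' estimated counts, which divide each read over the transcripts it hits, were used, the 5 col11a2 transcripts kept 3.38% to 22.9% of their counts. All 5 then lay lower in the knockdown, with log2 fold changes of -2.09 to -1.75, and 4 of the 5 passed the test. The transcript ENSDART00000105754, flat in full counts, was at 2.17 and 2.35 split CPM in the knockdown against 5.19 and 11.6 split CPM in the control (log2 fold change -1.84 with SE 0.42, adjusted p = 0.0382 in edgeR). Among all 156 tested transcripts of these genes only 4 kept under 10% of their counts, all of them from col11a2, and 32 kept at least 90%.

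**Figure D2:**
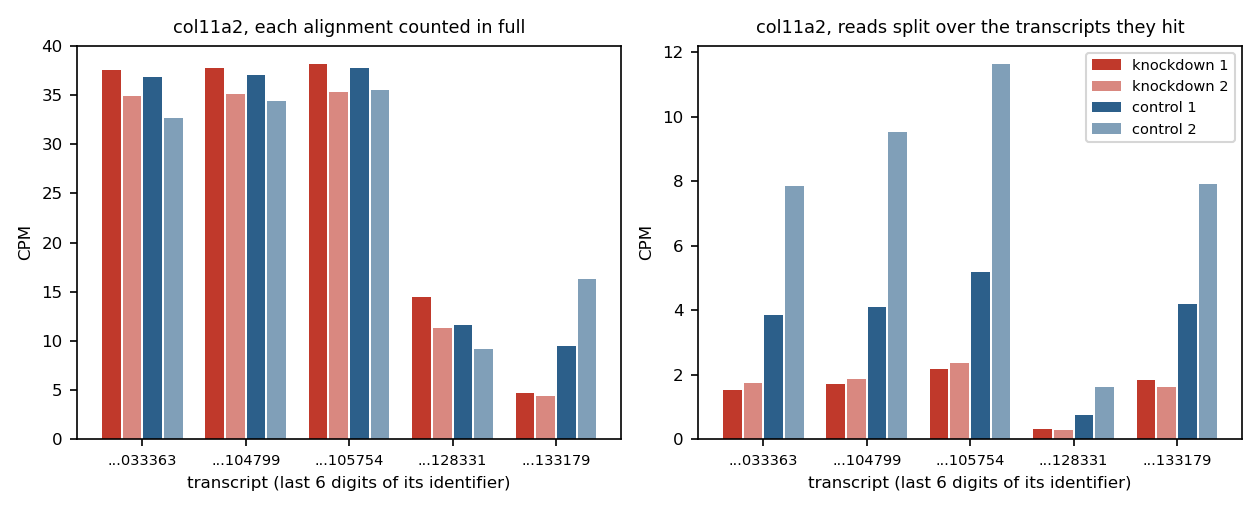
CPM (y axes) of the 5 col11a2 transcripts (x axes) in each library, with each alignment counted in full (left panel) and with reads split over the transcripts they hit (right panel, CPM of the library's split total). In each set of 4 bars the knockdown libraries (red) stand left of the control libraries (blue); in full counts only 1 transcript is lower in both knockdown libraries by more than a small margin, and in split counts all 5 are.

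A list of genes known from cartilage and notochord cells was measured beside these collagens. Whether RNA of these genes came from such cells was not tested. Of 16 tested genes of that list 2 fell (12.5%, against 8.06% of all tested genes called). They were sox5 and sox6, which encode transcription factors that act with Sox9 on cartilage genes. The level of sox5 was 23.8 and 23.3 CPM in the knockdown, against 45.7 and 42.9 CPM in the control (log2 fold change -0.91 with SE 0.21, adjusted p = 0.0457 in edgeR). The level of sox6 was 12.02 and 13.1 CPM in the knockdown, against 38.9 and 30.1 CPM in the control (log2 fold change -1.46 with SE 0.24, adjusted p = 0.0257 in edgeR). The summed level of the 22 matched genes was 212 and 198 CPM in the knockdown and 254 and 283 CPM in the control. Without sox5 and sox6, left out because they were called lower, the sum was 177 and 161 CPM in the knockdown and 169 and 210.1 CPM in the control, which overlap. That choice by itself brings the groups closer, and genes at a high level such as sox9b and hapln1b weigh most in the sum. Both knockdown libraries were below both control libraries in 9 of the 16 and above them in 2, which were sox9b and hapln1b. Over all tested genes 32.3% were below and 29.8% above. At an unadjusted p under 0.05 in edgeR 9 of the 16 were lower and 1 higher. Over all tested genes 17.9% were lower and 12.9% higher at that p. The level of sox9b was 53.6 and 59.3 CPM in the knockdown, against 34.7 and 27.3 CPM in the control (log2 fold change 0.86 with SE 0.23, adjusted p = 0.0593 in edgeR). The level of hapln1b, which links aggrecan to hyaluronan, was 44.5 and 38.6 CPM in the knockdown, against 35.6 and 25.8 CPM in the control. The cartilage matrix protein matn1 was at 0 and 0.272 CPM in the knockdown, against 0.546 and 5.23 CPM in the control. Aggrecan (acanb) was at 0.0954 and 0 CPM in the knockdown, against 0.364 and 1.05 CPM in the control. The matn1 and acanb values, which missed the threshold, were highest in control replicate 2, the library with the highest col2a1a. Of the other tested genes of the list, barx1, lect1, matn4, acana, COMP, epyc and hapln1a were also highest in control replicate 2. Highest in control replicate 1 were sox5, sox6, sox9a, ntla and shha. Highest in a knockdown library were sox9b and hapln1b. The part of such cells in the collagen values was not tested.

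The other fibrillar collagens had 0 calls by edgeR among 10 tested genes, with 6 at an unadjusted p under 0.05 (1 higher and 5 lower) and 2 lower by DESeq2. Over all tested genes 8.06% were called by edgeR, 12.9% were higher and 17.9% lower at that p, and 9.64% were lower by DESeq2. Both knockdown libraries were below both control libraries in 6 of the 10 (all tested genes, 32.3%) and above them in 1 (all tested genes, 29.8%), and the class median of log2 fold changes was -0.59. It stayed between -0.82 and -0.28 when 1 library at a time was left out. Collagen I, the main collagen of skin, bone and tendon, has 3 genes here. The alpha 2 chain col1a2 had 65.96 and 52.5 CPM in the knockdown and 81.7 and 109 CPM in the control (log2 fold change -0.69 with SE 0.24, adjusted p = 0.117 in edgeR). The alpha 1 gene col1a1b had 46.5 and 38.6 CPM in the knockdown and 58.3 and 89.0 CPM in the control (log2 fold change -0.79 with SE 0.26, adjusted p = 0.102 in edgeR). In col1a1a, the most abundant of the 3 per length at 19.0 RPKM, the groups overlapped, with 124 and 96.4 CPM in the knockdown and 100.5 and 152 CPM in the control (log2 fold change -0.20 with SE 0.27, adjusted p = 0.674 in edgeR).

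Collagen V, a minor partner of collagen I that regulates fibril diameter, had members on both sides. The alpha 3 gene col5a3b had the lowest log2 fold change of the class among genes averaging at least 2 CPM, at 2.65 and 1.09 CPM in the knockdown against 6.75 and 5.59 CPM in the control (log2 fold change -1.73 with SE 0.43, adjusted p = 0.0509 in edgeR), and the groups did not overlap. COL5A2 (1 of 2) was at 6.44 and 8.19 CPM in the knockdown and 11 and 18.6 CPM in the control (log2 fold change -1.02 with SE 0.32, adjusted p = 0.0870 in edgeR). The col5a3a gene ENSDARG00000077739 was at 2.60 and 1.54 CPM in the knockdown and 1.13 and 0.615 CPM in the control, the only gene of the class with both knockdown libraries above both control libraries (log2 fold change 1.24 with SE 0.49, adjusted p = 0.150 in edgeR). The collagen V gene with the highest level per length, col5a1, overlapped between groups, at 89.7 and 67.7 CPM in the knockdown and 82.8 and 137 CPM in the control. Collagen XXVII, a fibrillar collagen of cartilage, was low, with COL27A1 (1 of 2) at 0.859 and 0.870 CPM in the knockdown and 1.84 and 2.46 CPM in the control (log2 fold change -1.31 with SE 0.41, adjusted p = 0.0887 in edgeR). The gene col27a1a was at 5.63 and 5.06 CPM in the knockdown and 5.78 and 7.52 CPM in the control. Of 16 markers of periocular mesenchyme and neural crest, cells that form connective tissue around the eye, 1 was called lower (tfap2a) and 0 higher. That is 6.25%, against 8.06% of all tested genes. Both knockdown libraries were below both control libraries in 8 of the 16 markers (all tested genes, 32.3%) and above them in 0 (all tested genes, 29.8%). At an unadjusted p under 0.05 in edgeR 7 markers were lower and 0 higher, where 17.9% of all tested genes were lower and 12.9% higher. By DESeq2 3 markers were lower, where 9.64% of all tested genes were. The markers summed to 261 and 261 CPM in the knockdown and 586 and 477 CPM in the control. Much of the control sum came from tfap2a, at 16.9 and 69.1 CPM in the knockdown and 314 and 226 CPM in the control. Whether tfap2a RNA came from mesenchyme or neural crest cells was not tested. Without tfap2a, left out because it was called lower, the sum was 244 and 192 CPM in the knockdown and 272 and 251 CPM in the control. That choice by itself brings the groups closer. Their part in these values was not tested. Of 4 tested osteoblast genes 0 were called by edgeR or by DESeq2, and 0 had an unadjusted p under 0.05. Over all tested genes 8.06% were called by edgeR, 6.23% were higher and 9.64% lower by DESeq2, and 30.7% had such a p in edgeR.

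**Figure D3:**
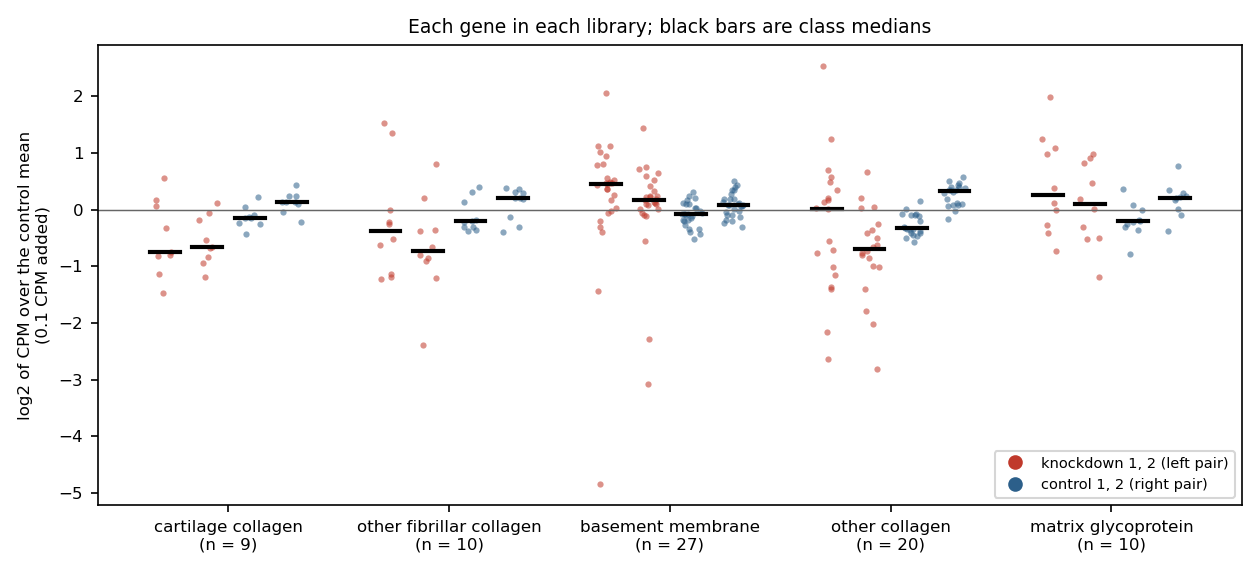
Log2 of CPM over the mean of the log2 control values, with 0.1 CPM added (y axis), for each tested gene (points) in each library, knockdown libraries left of control libraries, by class (x axis). Black bars are class medians; the cartilage collagen medians are -0.74 and -0.65 in the knockdown libraries, and the basement membrane medians are 0.46 and 0.17 there.

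The basement membrane genes lay on the other side. Of 27 tested genes, both knockdown libraries were above both control libraries in 12 (44.4%), where 29.8% of all tested genes had that order, and below them in 4 (14.8%), where the share of all tested genes was 32.3%. Their median log2 fold change was 0.28 and stayed between 0.18 and 0.45 when 1 library at a time was left out. Past the edgeR threshold 1 gene rose (lamb2l) and 1 fell (7.41%, where 8.06% of all tested genes were called), so calls did not set the class apart. At an unadjusted p under 0.05 in edgeR there were 4 higher and 2 lower genes. Over all tested genes 12.9% were higher and 17.9% lower at that p. In knockdown replicate 1 the class median was 0.46, and in replicate 2 it was 0.17. The summed lens marker level was 2314 CPM in knockdown replicate 1 and 1372 CPM in knockdown replicate 2, against 464 and 582 CPM in the control. The part of lens cells, which make a thick capsule of basement membrane, was not tested.

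Laminin beta chains held the one called increase of the basement membrane class. The gene lamb2l, named for its likeness to laminin beta 2 (ENSDARG00000033950, chromosome 23), had 85.0 and 54.9 CPM in the knockdown and 22.1 and 18.6 CPM in the control. Both knockdown libraries lay far above either control library, with a log2 fold change of 1.78 with SE 0.27 and adjusted p = 0.0228 in edgeR. Its second transcript gave 38.3 and 25.2 CPM in the knockdown against 9.89 and 7.995 CPM in the control (log2 fold change 1.83 with SE 0.29, adjusted p = 0.0234 in edgeR), with reads shared between both. The other beta chain genes did not pass the test. Of the 2 gene identifiers of lamb1a, the first had 32.1 and 26.4 CPM in the knockdown against 20.3 and 26.5 CPM in the control (ENSDARG00000026491, log2 fold change 0.32). The other had 20.1 and 19.7 CPM in the knockdown against 11.3 and 16.5 CPM in the control (ENSDARG00000089288, log2 fold change 0.52). The beta chain lamb2 was at 6.202 and 7.70 CPM in the knockdown and 7.08 and 7.27 CPM in the control (log2 fold change -0.04). The low-level lamb4 was at 0.954 and 0.236 CPM in the knockdown and 2.14 and 3.51 CPM in the control, without overlap (log2 fold change -2.27 with SE 0.64, adjusted p = 0.0686 in edgeR).

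Among the alpha chains, LAMA1 encodes the alpha 1 chain of the laminin that is most abundant in early embryonic basement membranes. It had 101 and 88.1 CPM in the knockdown and 66.1 and 51.8 CPM in the control, without overlap, and missed the threshold (log2 fold change 0.68 with SE 0.23, adjusted p = 0.101 in edgeR). With split reads both its tested transcripts passed. This one had a log2 fold change of 0.90 with SE 0.22 and adjusted p = 0.0446 in edgeR, and the other was at 49.5 and 43.6 split CPM in the knockdown against 23.7 and 27.5 split CPM in the control (log2 fold change 0.92 with SE 0.22, adjusted p = 0.0436 in edgeR). The alpha 4 chain lama4 was at 19.9 and 22.8 CPM in the knockdown and 19.6 and 21.96 CPM in the control (log2 fold change 0.04). The alpha 5 chain lama5 was at 19.4 and 14.0 CPM in the knockdown and 12.9 and 14.8 CPM in the control (log2 fold change 0.27). Both overlapped between groups. The alpha 2 gene lama2 was at 6.99 and 5.33 CPM in the knockdown and 4.23 and 3.69 CPM in the control (log2 fold change 0.64 with SE 0.29, adjusted p = 0.193 in edgeR). The alpha 3 gene lama3 averaged 0.0141 CPM and was not tested.

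The gamma 1 chain lamc1, part of most laminins, was at 108 and 87.8 CPM in the knockdown and 79.8 and 76.1 CPM in the control (log2 fold change 0.33 with SE 0.22, adjusted p = 0.369 in edgeR), without overlap and short of the threshold.

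Per transcript length the order of the laminin chains was led by LAMA1 (13.0 RPKM averaged over the 4 libraries) among the alpha chains, by lamb1a (10.6 RPKM, ENSDARG00000026491) among the beta chains and by lamc1 (13.6 RPKM) among the gamma chains. Levels of LAMA1 were 15.9 and 14.9 RPKM in the knockdown libraries and 11.1 and 10.3 RPKM in the control libraries. Those of lamc1 were 16.2 and 13.7 RPKM in the knockdown libraries and 12.2 and 12.3 RPKM in the control libraries. These 2 chains did not differ beyond the spread between libraries of a group in the knockdown. Of the 2 leading beta chains, lamb2l was at 11.2 and 7.38 RPKM in the knockdown libraries and 2.81 and 2.56 RPKM in the control libraries, and lamb1a (ENSDARG00000026491) was at 12.6 and 10.8 RPKM in the knockdown libraries and 8.07 and 11.1 RPKM in the control libraries. Their levels overlapped in the knockdown libraries, and lamb2l was the lower in the control libraries.

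**Figure D4:**
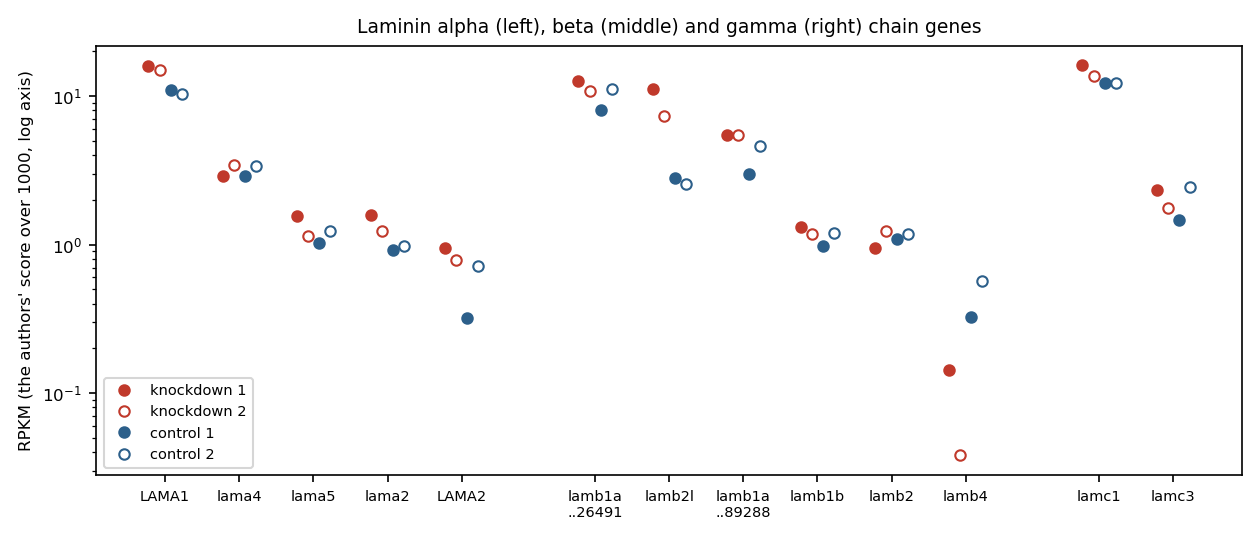
Level per transcript length (y axis, RPKM, log scale) of 13 tested laminin alpha, beta and gamma chain genes (x axis) in the knockdown libraries (red) and the control libraries (blue), filled for replicate 1 and open for replicate 2. The lamb2l knockdown points, at 11.2 and 7.38 RPKM, lie above its control points, at 2.81 and 2.56 RPKM.

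Collagen IV forms the second network of basement membranes. The median log2 fold change of its 6 chains was 0.11, and 0 of the 6 were called by edgeR, by DESeq2 or at an unadjusted p under 0.05. Over all tested genes 8.06% were called by edgeR, 6.23% were higher and 9.64% lower by DESeq2, and 30.7% had such a p in edgeR. The chain with the highest level per length was col4a5 (14.1 RPKM), at 106 and 94.8 CPM in the knockdown and 89.5 and 98.5 CPM in the control (log2 fold change 0.10 with SE 0.21, adjusted p = 0.807 in edgeR). Its partner chain col4a6 was at 60.0 and 52.5 CPM in the knockdown and 42.0 and 47.0 CPM in the control, without overlap (log2 fold change 0.34 with SE 0.21, adjusted p = 0.351 in edgeR). The widely used chains col4a1 and col4a2 were at 15.2 and 17.5 CPM and at 21.9 and 23.9 CPM in the knockdown, against 13.0 and 17.0 CPM and 20.0 and 24.4 CPM in the control. With 2 libraries a group, an interval of 2 SE around the log2 fold change of col4a1 (0.12, SE 0.25) spans values on both sides of 0, so no lack of change is shown.

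Collagens XV and XVIII are basement membrane collagens that carry an endostatin domain. The gene col15a1b had the highest level per length of the basement membrane class, 14.6 RPKM, and its groups stood well apart, with 75.4 and 65.9 CPM in the knockdown and 39.8 and 38.4 CPM in the control (log2 fold change 0.85 with SE 0.21, adjusted p = 0.0510 in edgeR). It passed with DESeq2 (log2 fold change 0.97, adjusted p = 0.00671, most significant transcript), with split reads and with upper-quartile or RLE scaling. It did not pass with a stricter filter on low counts or with counts summed per gene. The gene col18a1 was at 87.4 and 71.8 CPM in the knockdown and 57.9 and 64.3 CPM in the control (log2 fold change 0.38 with SE 0.22, adjusted p = 0.302 in edgeR). Of the other components, perlecan (hspg2) was at 27.7 and 19.9 CPM in the knockdown and 9.36 and 17.0 CPM in the control (log2 fold change 0.85 with SE 0.33, adjusted p = 0.146 in edgeR). Agrin (agrn), which clusters receptors at the nerve-muscle synapse, was at 66.1 and 80.3 CPM in the knockdown and 92.6 and 81.0 CPM in the control (log2 fold change -0.24 with SE 0.22, adjusted p = 0.513 in edgeR). The 3 tested nidogen genes had log2 fold changes of 0.10 to 0.73, with 0 called by edgeR or DESeq2 and 0 at an unadjusted p under 0.05. Over all tested genes 8.06% were called by edgeR, 6.23% were higher and 9.64% lower by DESeq2, and 30.7% had such a p in edgeR.

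The other collagens had 2 calls, both lower, in 20 tested genes (10%, where 8.06% of all tested genes were called and 5.7% called lower). Both knockdown libraries were below both control libraries in 9 of the 20 (45%, against 32.3% of all tested genes) and above them in 1 (5%, against 29.8%). The median log2 fold change was -0.35 and ranged over -0.72 to -0.0011 when 1 library at a time was left out. By DESeq2 6 were lower and 1 higher, where 9.64% of all tested genes were lower and 6.23% higher. Collagen VI, which forms beaded filaments near basement membranes and around cells, had the same order in all 5 tested genes, with both knockdown libraries below both control libraries. Their median log2 fold change was -1.07. With counts in full only col6a1 passed the edgeR test. This gene (ENSDARG00000074908, chromosome 11) had 6.68 and 6.63 CPM in the knockdown and 14.4 and 21.9 CPM in the control, with a log2 fold change of -1.45 with SE 0.28 and adjusted p = 0.0302 in edgeR. The knockdown libraries were alike and far below the lower control library. Of the others, col6a2 was at 23.1 and 20.4 CPM in the knockdown and 31.5 and 36.1 CPM in the control (log2 fold change -0.64 with SE 0.23, adjusted p = 0.117 in edgeR). With split reads this transcript passed, at 9.58 and 10.3 split CPM in the knockdown against 29.96 and 48.2 split CPM in the control (log2 fold change -1.92 with SE 0.28, adjusted p = 0.0223 in edgeR). Its 2 lower-level transcripts, at 0.835 to 0.979 CPM in the knockdown and 1.96 to 3.09 CPM in the control, had log2 fold changes of -1.48 and -1.51 short of the threshold. The alpha 3 gene col6a3 (ENSDARG00000077139) was at 5.87 and 5.93 CPM in the knockdown and 9.16 and 15.6 CPM in the control (log2 fold change -1.07 with SE 0.31, adjusted p = 0.0734 in edgeR). The alpha 6 gene col6a6 was at 11.95 and 11.3 CPM in the knockdown and 16.0 and 26.1 CPM in the control (log2 fold change -0.86 with SE 0.29, adjusted p = 0.105 in edgeR).

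Collagen VII makes the anchoring fibrils that hold epidermis to the dermis. The gene col7a1l (ENSDARG00000069692, chromosome 4) fell, with 4 and 11 counts in the knockdown libraries and 52 and 65 counts in the control libraries. On the CPM scale these are 0.0954 and 0.199 CPM in the knockdown and 1.05 and 1.18 CPM in the control, with a log2 fold change of -2.87 with SE 0.63 and adjusted p = 0.0389 in edgeR. The gene COL7A1 had the same order short of the threshold, at 0.906 and 0.217 CPM in the knockdown and 2.16 and 2.098 CPM in the control (log2 fold change -1.95 with SE 0.64, adjusted p = 0.0975 in edgeR). Epidermis markers fell beside them in the same libraries. The keratin gene krt5 was at 18.5 and 3.93 CPM in the knockdown, against 159 and 169.6 CPM in the control. The periplakin gene ppl was at 4.34 and 1.70 CPM in the knockdown, against 24.6 and 30.8 CPM in the control. None of the 19 epidermis genes was at 0 counts in all libraries. The part of epidermal cells in the values of lamb4 and the collagen VII genes was not tested.

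Among the remaining collagens, COL8A2, a collagen of the membrane under the corneal endothelium, was at 2.31 and 2.99 CPM in the knockdown and 4.81 and 7.85 CPM in the control, without overlap (log2 fold change -1.25 with SE 0.34, adjusted p = 0.0632 in edgeR). The collagen XXVIII gene col28a1 had the highest log2 fold change of the class, at a mean of 1.85 CPM, but its 4.70 and 1.21 CPM in the knockdown, against 0.627 and 0.850 CPM in the control, came mainly from knockdown replicate 1 (log2 fold change 1.99 with SE 0.64, adjusted p = 0.0928 in edgeR, 0.73 without that library). The collagens XII, XIV and XVI, which associate with fibrils of other collagens, overlapped between groups. The second collagen XII gene, col12a1, was at 4.84 and 2.72 CPM in the knockdown and 3.84 and 6.01 CPM in the control. COL12A1 was at 18.9 and 10.7 CPM in the knockdown and 11.9 and 22.6 CPM in the control. The collagen XVI gene COL16A1 was at 12.2 and 8.28 CPM in the knockdown and 10.4 and 11.8 CPM in the control, and col14a1, with the highest log2 fold change of the class among genes averaging at least 2 CPM (0.37), was at 4.60 and 3.23 CPM in the knockdown and 1.84 and 4.18 CPM in the control. The membrane-bound collagen XXIII gene COL23A1 (3 of 3) was at 1.36 and 0.634 CPM in the knockdown and 0.688 and 1.28 CPM in the control, also overlapping. In knockdown replicate 1 the class median was 0.02, and in replicate 2 it was -0.69. In control replicate 1 it was -0.33 and in control replicate 2 it was 0.33, so in both groups the 2 libraries differed on this class.

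**Figure D5:**
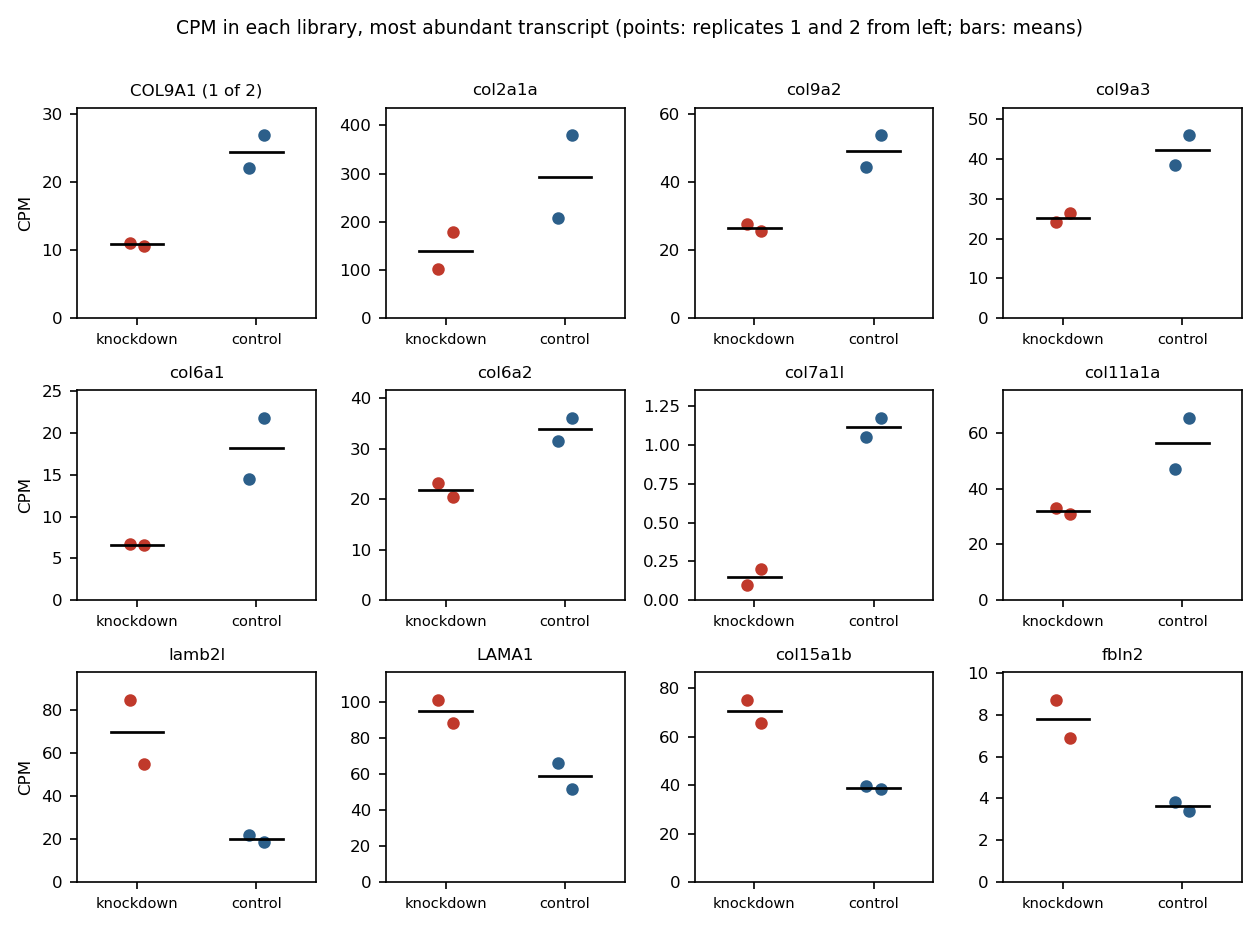
CPM (y axes, each from 0) of 12 genes in the 2 knockdown libraries (red) and the 2 control libraries (blue), most abundant transcript, with group means as bars. The 12 were picked from the genes described here, and in all 12 the groups do not overlap. Of all tested genes 29.8% had both knockdown libraries above both control libraries and 32.3% below. The collagen genes shown, other than col15a1b, are lower in the knockdown. For col6a1 the levels are 6.68 and 6.63 CPM in the knockdown against 14.4 and 21.9 CPM in the control. Higher are lamb2l, LAMA1, col15a1b and fbln2. The groups overlap in COL2A1 (2 of 2), col9a1 and the most abundant col11a2 transcript, which are not shown.

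Of the 10 tested matrix glycoprotein genes 1 rose and 0 fell (10%, where 8.06% of all tested genes were called). Both knockdown libraries were above both control libraries in 4 (40%, against 29.8% of all tested genes) and below them in 3 (30%, against 32.3%). Their median log2 fold change was 0.16, and it changed sign, over -0.0705 to 0.58, when 1 library at a time was left out. Fibulin 2, a protein of basement membranes and elastic fibres, is encoded by fbln2 (ENSDARG00000015156, chromosome 11), of which 2 of 5 tested transcripts rose. Transcript ENSDART00000113707 was at 7.56 and 6.07 CPM in the knockdown and 2.79 and 2.84 CPM in the control (log2 fold change 1.27 with SE 0.28, adjusted p = 0.0397 in edgeR). Transcript ENSDART00000134504 was at 4.06 and 3.19 CPM in the knockdown and 1.17 and 1.27 CPM in the control (log2 fold change 1.57 with SE 0.35, adjusted p = 0.0404 in edgeR). The most abundant transcript was at 8.71 and 6.91 CPM in the knockdown and 3.84 and 3.401 CPM in the control (log2 fold change 1.11 with SE 0.28, adjusted p = 0.0517 in edgeR). Fibulin 1 (fbln1) was at 8.95 and 7.41 CPM in the knockdown and 4.11 and 4.16 CPM in the control, without overlap (log2 fold change 0.98 with SE 0.26, adjusted p = 0.0619 in edgeR). The groups of fbln5, a fibulin of elastic fibres, overlapped, with 1.24 and 0.852 CPM in the knockdown and 0.688 and 2.21 CPM in the control. The collagen-binding protein sparc had the highest level per length of all these genes, 53.4 RPKM, at 83.5 and 89.6 CPM in the knockdown and 93.6 and 132 CPM in the control (log2 fold change -0.38 with SE 0.24, adjusted p = 0.342 in edgeR). Fibronectin (fn1) was at 34.7 and 26.8 CPM in the knockdown and 20.7 and 33.7 CPM in the control. The fibrillin gene fbn2b, whose protein forms microfibrils, was at 59.2 and 62.0 CPM in the knockdown and 47.2 and 62.4 CPM in the control. Both overlapped between groups. The second fibronectin gene, fn1b, was at 1.91 and 2.21 CPM in the knockdown and 4.19 and 2.46 CPM in the control, and the fibrillin gene FBN3 (1 of 2) was at 5.49 and 3.81 CPM in the knockdown and 2.41 and 3.09 CPM in the control, neither past the test.

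The ceramide transfer protein genes, the 2 that are no collagens, were at 19.6 and 32.8 CPM in the knockdown and 28.1 and 28.2 CPM in the control for COL4A3BP (1 of 2), and at 2.15 and 2.45 CPM in the knockdown and 2.83 and 3.56 CPM in the control for col4a3bpa. By edgeR or DESeq2 0 of the 2 were called, and 1 was lower at an unadjusted p under 0.05. Over all tested genes 8.06% were called by edgeR, 6.23% were higher and 9.64% lower by DESeq2, and 17.9% were lower at that p in edgeR.

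Collagen needs enzymes that hydroxylate, fold and crosslink its chains. Of 45 tested genes of this machinery 1 rose and 0 fell (2.22%, against 8.06% of all tested genes), and their median log2 fold change was 0.00. At an unadjusted p under 0.05 in edgeR 4 were higher and 2 lower, where 12.9% of all tested genes were higher and 17.9% lower. The one was p4ha1b, which encodes the catalytic alpha subunit of prolyl 4-hydroxylase, at 12.7 and 23.5 CPM in the knockdown and 6.57 and 5.61 CPM in the control (log2 fold change 1.57 with SE 0.33, adjusted p = 0.0368 in edgeR). Of 34 tested matrix receptor genes 0 rose and 2 fell (5.88%, against 8.06% of all tested genes), both beta 1 integrin genes. The level of itgb1b.1 was 2.27 and 1.56 CPM in the knockdown, against 4.995 and 4.85 CPM in the control (log2 fold change -1.37 with SE 0.33, adjusted p = 0.0470 in edgeR). The level of itgb1b.2 was 0.358 and 0.308 CPM in the knockdown, against 1.52 and 1.37 CPM in the control (log2 fold change -2.11 with SE 0.50, adjusted p = 0.0462 in edgeR). The more abundant beta 1 integrin genes itgb1b and itgb1a were not called. The level of itgb1b was 43.1 and 48.9 CPM in the knockdown, against 38.1 and 40.7 CPM in the control (log2 fold change 0.22). That of itgb1a was 16.1 and 19.1 CPM in the knockdown, against 18.5 and 20.1 CPM in the control (log2 fold change -0.13).

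Among 24 tested matrix proteases and inhibitors 2 rose and 1 fell (12.5%, against 8.06% of all tested genes called). The gelatinase gene mmp2, whose product cuts collagen IV, was at 33.0 and 34.5 CPM in the knockdown and 7.26 and 14.8 CPM in the control (log2 fold change 1.61 with SE 0.34, adjusted p = 0.0368 in edgeR). The secreted metalloprotease gene adamts9 was at 25.6 and 18.9 CPM in the knockdown and 9.87 and 10.8 CPM in the control (log2 fold change 1.11 with SE 0.26, adjusted p = 0.0441 in edgeR). The membrane-bound protease gene mmp24 was at 0.477 and 0.562 CPM in the knockdown and 2.08 and 1.85 CPM in the control (log2 fold change -1.91 with SE 0.44, adjusted p = 0.0440 in edgeR). In these 3 called genes the groups did not overlap. Over the 24, both knockdown libraries were below both control libraries in 12 and above them in 5. Over all tested genes 32.3% were below and 29.8% above. The median log2 fold change of the list was -0.49. At an unadjusted p under 0.05 in edgeR 4 were higher and 6 lower, where 12.9% of all tested genes were higher and 17.9% lower.

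Cells of blood vessels, muscle and pigment epithelium also make basement membranes. Over all tested genes 8.06% were called by edgeR, 6.23% were higher and 9.64% lower by DESeq2, and 30.7% had an unadjusted p under 0.05 in edgeR. Of 18 tested endothelium genes 0 were called by edgeR or DESeq2, 1 was lower at an unadjusted p under 0.05, and their summed level was 141 and 154 CPM in the knockdown and 152 and 140 CPM in the control. Of 13 tested pigment epithelium genes 0 were called by edgeR or DESeq2 and 0 had an unadjusted p under 0.05. Their summed levels were 694 and 951 CPM in the knockdown and 742 and 752 CPM in the control. Both knockdown libraries were above both control libraries in 8 of the 13 and below them in 0. Over all tested genes 29.8% were above and 32.3% below. The median log2 fold change of the list was 0.36. Of 16 tested muscle genes 2 fell, myhz2 and myhz1.1 (12.5%, against 8.06% of all tested genes called). The muscle list summed to 66.7 and 81.1 CPM in the knockdown and 84.6 and 101 CPM in the control.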

How the data were processed

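Poly-A selected RNA of dissected retinas was measured in 4 libraries, 2 biological replicates per group by the series' design text. The authors aligned reads with bowtie to zebrafish cDNA of Ensembl release 66, going by the deposited files' names; versions, settings and build: not given in the sources used here. Per the file headers, each library's deposited table holds alignment counts per transcript in whole numbers and estimated counts in which a read is shared out among its transcripts. The authors' whole-series table holds a score that equals 1000 times RPKM: recomputed from the counts of both mates, with lengths solved from the same values, 99.8% of the 43156 scores of each library matched to within 1 unit. The authors' comparison table gives log2 fold changes with adjusted p-values from DESeq, per the submitters' processing notes.

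Knockdown and control counts of 1 mate entered edgeR's quasi-likelihood test (version 4.0.16, R 4.3.3) after filterByExpr and TMM normalization, without a block. P-values of 37012 transcripts (20875 genes) were adjusted by Benjamini and Hochberg's method, and 0.05 was the limit for a call. A gene counted as called if at least 1 of its transcripts passed, in the direction of the transcript with the smallest p, and its printed value is that of its most abundant tested transcript unless another is named. CPM values are TMM-scaled; the SE of a log2 fold change is its size over the square root of F. Each alignment counts in full, so transcripts of 1 gene and near-identical genes share reads, and strand use is not stated. Of the 91 genes, 46 have 1 transcript. The test was checked on simulated data. Alternatives were DESeq2 1.42.0 (estimated counts were rounded for the split-read fit), other scalings, filters, thresholds and counts, a replicate block, sums per gene and leaving out each library.

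The text names id2a, every member gene with a called transcript, per class the 8 with the highest level per length and those with the largest and smallest log2 fold change among genes averaging at least 2 CPM, and in the other lists the called genes, at most 6 by p. Other genes were named after their values were seen. Of the called genes under this rule, 1 member and 1 retina marker are not reported here. The members, classes and lists were chosen with earlier results of these data known. The gene pitx3 stands in 2 marker lists.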

Additional observations from a re-analysis of the deposited data

How the results depend on the processing

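With 2 libraries a group, few changes reach the threshold and the counts of calls move with the settings; causes were not tested beyond what each setting changes by construction. Against 7 genes called (2 higher, 5 lower) of the collagen and basement membrane genes and 1683 of all genes (494 higher, 1189 lower), DESeq2 called 20 (5 higher, 15 lower) and 3313 (1301 higher, 2012 lower). Without a filter on low counts the numbers were 19 (5 and 14) and 3176 (1115 and 2061), with split reads 11 (4 and 7) and 2310 (805 and 1505), and with counts summed per gene 3 (2 and 1) and 828 (208 and 620). A threshold of 0.10 gave 21 (5 and 16) and 3812 (1417 and 2395), and 0.01 gave 0 (0 and 0) and 7 (2 and 5). At an unadjusted p under 0.05, 31 of the 78 tested genes passed with edgeR, where 30.7% of all tested genes did. Leaving out 1 library gave 0 to 13 called member genes (0 to 4 higher, 0 to 9 lower) and 0 to 2895 of all genes (0 to 898 higher, 0 to 1997 lower), with 0 without either control library. All 7 stayed called under RLE or upper-quartile scaling, counts of both mates, split reads and no filter; 6 stayed under DESeq2 and 6 under the stricter filter, which left col7a1l untested, and 3 when summed per gene (lamb2l, fbln2, col6a1).

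Same-numbered deviations from the group means correlated at -0.0196 over 37012 transcripts. This value cannot show whether the replicate numbers pair the libraries, because the deviations of 2 libraries in a group mirror each other. With the replicate number as a block, 13 member genes were called (3 higher, 10 lower) and 2324 of all genes, all 7 among the 13, and the values of COL2A1 (2 of 2) and COL23A1 (3 of 3) were -0.0032 and -0.0233.

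Some values changed sign. COL2A1 (2 of 2) was -0.0122 with both mates and -0.0355 under the stricter filter, and COL23A1 (3 of 3) was -0.14 with both mates. The most abundant col11a2 transcript was -1.84 with split reads, -0.0367 under the stricter filter and -0.0365 when summed per gene. Leaving out 1 library gave -0.0837 to 0.40 for id2a, -0.18 to 0.18 for COL2A1 (2 of 2), -0.0435 to 0.0655 for col11a2, -1.06 to 0.60 for fbln5, -0.0227 to 0.36 for fbn2b, -0.12 to 0.57 for fn1, -0.52 to 0.23 for COL4A3BP (1 of 2), -0.68 to 0.32 for COL12A1, -0.41 to 0.14 for COL16A1, -0.62 to 0.53 for COL23A1 (3 of 3), -0.0791 to 1.09 for col14a1 and -0.45 to 0.13 for col1a1a. The median of the matrix glycoproteins ranged over -0.0705 to 0.58.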
